A study of Mus musculus with 1 sample.

Results

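The set described here holds the genes of the proteasome, the protease complex that degrades ubiquitin-tagged proteins. Its members are the genes of a single-cell count table whose names start with Psma, Psmb, Psmc, Psmd or Psme followed by a digit, with names that carry the pseudogene ending -ps left out. Of 25661 genes in the table, 48 names matched the letters, 3 of them ended in -ps, and 45 were members. The rule goes by names alone and uses no measured value. Psmc3ip matched the letters but encodes a meiotic recombination protein, so it is named here, and left out of every sum and count below. It was at 33.1 CPM under hashtag A965 and 40.8 CPM under hashtag A963, where CPM stands for a gene's counts, summed over a set of cells, relative to all counts of those cells. Of the other 44 members, 42 reached 10 CPM over the cells of A965 and A963. The other two were Psma8, an alpha subunit of the testis (2.01 CPM in A965 and 2.32 CPM in A963), and Psmb11, a beta subunit of the thymus cortex (1.38 CPM in A965 and 1.52 CPM in A963).

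The pool held 3 sorted populations of mouse bone marrow. The cKit+Lin- progenitors and the GMP-MoPs came from 1 LPS-injected and 1 naive animal, and the cMoPs, which like GMP-MoPs are progenitors of monocytes, came from a naive animal. They were marked with 5 hashtags and read as 1 library of 3' ends. The labels give neither strain, age, LPS dose nor time, and they do not say which hashtag marks which population or mouse, so no hashtag is given a treatment here. With 1 library and no replicate of any hashtag there is no test: values are summed counts scaled to CPM, and every interval is an exact 95% interval that covers counting error only.

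After filtering, 5567 cells of A965, 4716 of A963, 68 of A961, 104 of A962 and 73 of A964 were kept, where 15000 cells had been loaded for A965 and A963 and 100 for each of the other three. Kept cells held between 8822 and 140994 counts. No cell barcode number occurred in more than 1 cell. Of 10528 kept cells, 9151 (86.9%) fell in 1 of 15 gates set by marker genes, none of which is a proteasome gene, and 1190 lay near a gate limit. A gate is named by its markers and leading genes. Over all cells, B cell genes summed to 23.5 CPM in A965 and 26.4 CPM in A963, genes of T and NK cells to 314 CPM in A965 and 219.7 CPM in A963, macrophage genes to 36.2 CPM in A965 and 36.6 CPM in A963, and stromal genes to 2.14 CPM in A965 and 2.52 CPM in A963. Of the 4 T and NK genes 1 reached 10 CPM. Their sum was highest in the Mpo and Elane gate, at 742 CPM in A965 and 724 CPM in A963. Nkg7, 1 of the 4, is a leading gene of that gate, so the sum does not measure T and NK cells. Hashtags differed in Xist, at 11.8 CPM in A965 and 611 CPM in A963, and in Y-linked genes, at 79.5 CPM in A965 and 6.46 CPM in A963. Hashtag, mouse, sex and any difference in LPS treatment therefore cannot be told apart in any comparison of A965 with A963.

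The proteasome core is a barrel of alpha and beta rings: the alpha ring gates entry, and the beta subunits encoded by Psmb5, Psmb6 and Psmb7 cut after different residues. In cells of the immune system, and after interferon gamma elsewhere, Psmb8, Psmb9 and Psmb10 are built into new cores in place of Psmb5, Psmb6 and Psmb7, which gives the immunoproteasome, known for producing peptides for MHC class I. The 19S regulatory particle, with 6 ATPases encoded by the Psmc genes and a set of non-ATPase subunits encoded by Psmd genes, recognises and unfolds substrates. The activators of the Psme family are an alternative cap.

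Promoter windows are shown first for 4 of the 5 members whose levels ranged most widely over gates; the other, Psmd7, was not among the 37 of 44 members matched in the RefSeq promoter table. Each window runs from 250 bases before to 50 bases after a RefSeq start on GRCm38.p6, 5′ to 3′ on the gene's strand. Psmb8 lies at chr17:34197721-34201454 on the plus strand and its window at chr17:34197945-34198244, inside that span. Psmb9 lies at chr17:34181987-34187764 on the minus strand (window chr17:34187281-34187580, also inside its span) and Psmb10 at chr8:105935735-105938444 on the minus strand (window chr8:105938343-105938642). The windows of Psmb8 and Psmb9 thus do not hold the bases before the annotated start of the gene. Psmd9 lies at chr5:123169413-123250131 on the plus strand, its window is at chr5:123227940-123228239 inside that span, and capitals, in this window alone, mark a match to TGACNNNGC, the core of the antioxidant response element.
Psmb8: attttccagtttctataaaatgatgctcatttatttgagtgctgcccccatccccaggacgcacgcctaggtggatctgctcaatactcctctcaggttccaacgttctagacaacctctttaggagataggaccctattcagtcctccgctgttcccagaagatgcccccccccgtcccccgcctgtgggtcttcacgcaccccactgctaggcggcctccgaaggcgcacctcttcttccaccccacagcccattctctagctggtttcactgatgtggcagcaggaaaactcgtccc
Psmb9: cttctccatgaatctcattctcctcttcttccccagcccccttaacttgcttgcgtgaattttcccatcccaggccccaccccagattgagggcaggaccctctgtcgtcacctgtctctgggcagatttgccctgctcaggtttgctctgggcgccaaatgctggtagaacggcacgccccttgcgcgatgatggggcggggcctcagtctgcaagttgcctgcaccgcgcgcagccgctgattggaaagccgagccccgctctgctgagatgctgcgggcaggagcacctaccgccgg
Psmb10: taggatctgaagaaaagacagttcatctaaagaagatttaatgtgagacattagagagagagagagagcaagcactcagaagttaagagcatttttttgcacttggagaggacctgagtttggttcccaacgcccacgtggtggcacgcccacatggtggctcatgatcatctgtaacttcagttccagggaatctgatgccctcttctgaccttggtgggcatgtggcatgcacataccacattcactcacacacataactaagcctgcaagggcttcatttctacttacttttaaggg
Psmd9: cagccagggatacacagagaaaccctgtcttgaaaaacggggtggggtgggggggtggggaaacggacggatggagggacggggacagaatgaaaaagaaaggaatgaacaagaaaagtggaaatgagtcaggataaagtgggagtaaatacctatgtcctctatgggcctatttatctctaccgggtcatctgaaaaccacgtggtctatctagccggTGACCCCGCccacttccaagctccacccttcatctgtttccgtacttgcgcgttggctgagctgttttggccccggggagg

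Searched on both strands, TGACNNNGC was present in 12.4% of the 32851 windows of the table and in those of 6 members, among them Psmb5 and Psmb6. The letters of an interferon-stimulated response element, GAAA, any 2 bases and GAAA, were in 3.44% of windows and in those of Psmb3, Psmd4, Psmd9 and Psme1, and those of a kappa B element, GGGA, any base and TTTCC, were in 0.411% of windows and in none of the members'. CCAAT was in 37.4% of windows and in those of 14 members, Psmb9 among them. These matches describe the letters in the windows only.

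Psmb9 and Psmb8 sit in the MHC class II region beside the peptide transporter genes: Psmb9 overlaps Tap1 head to head by 212 bases on the opposite strand, and Psmb8 starts 495 bases from the end of Tap1. Of the 45 members, 13 overlap another gene of the table on the opposite strand and 8 on the same strand, including Psmb8 with the antisense gene Gm20496 and Psmd9 with the long noncoding gene Gm43409. Whether the authors' counting used strand is not given in the sources used here, so reads of such pairs cannot be told apart. Psme2b is a copy of Psme2 on another chromosome, and its counts are uncertain because reads of near-identical copies can be split between them.

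The members shared a broad order over gates. Summed over the 41 members other than Psmb8, Psmb9 and Psmb10, the level was highest in the early erythroid gate, which is led by Car1 and Car2, at 9159 CPM (9077 to 9242) in A965 and 8790 CPM (8746 to 8834) in A963. Relative to all counts it was lowest in the neutrophil gates. It was at 4033 CPM in A965 and 3724 CPM in A963 in the gate led by Fcnb, at 3580 CPM in A965 and 3398 CPM in A963 in the gate led by Ltf, and at 3520 CPM in A965 and 3817 CPM in A963 in the gate led by Retnlg. The other 11 gates lay between these, the granulocyte-monocyte progenitor gate of Mpo and Elane at 7743 CPM in A965 and 7192 CPM in A963 and the monocyte gate at 7372 CPM in A965 and 7470 CPM in A963. Of the 42 members counted, 24 in A965 and 27 in A963 had their highest level of the 15 gates in the early erythroid gate (57.1% in A965 and 64.3% in A963). Of all 7676 genes of at least 10 CPM, 19.98% in A965 and 17.3% in A963 had theirs there.

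**Figure D1:**
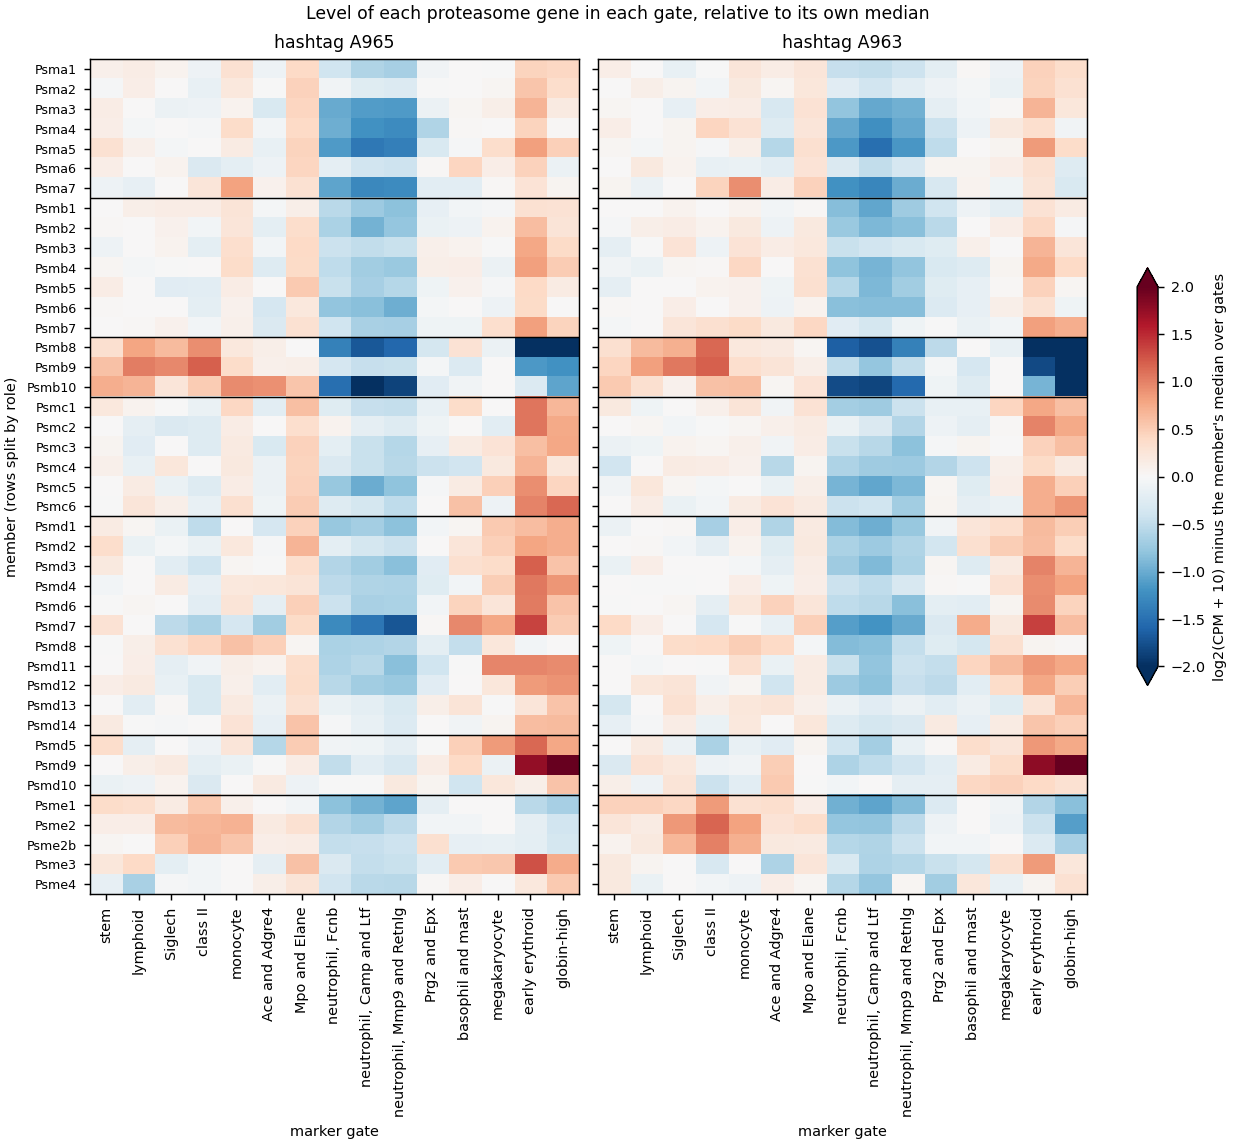
Level of each of 42 members (rows, split by role) in each of 15 gates (columns), within A965 (left) and within A963 (right); colour is log2(CPM + 10) minus the member's own median over gates, and colours stop at 2 either way. Most rows are red in the early erythroid column and blue in the neutrophil columns, while the rows of Psmb8, Psmb9 and Psmb10 are blue in both; the neutrophil colours depend on the scale, and with median-of-ratios scaling 10 members in A965 and 8 in A963, Psmb9 among them, lie above 0 there.

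Against all other gated cells of the same hashtag, 19 of 42 members in A965 and 19 in A963 were at least 1.5-fold higher in the early erythroid gate, on a log2 scale with 10 CPM added, where 24.2% of the 7676 genes of at least 10 CPM were in A965 and 18.4% in A963. In the other direction 2 members in A965 and 4 in A963 were at least 1.5-fold lower, where 22.9% of genes were in A965 and 21.9% in A963. The median log2 ratio of members was 0.53 in A965 and 0.48 in A963, and that of all 7676 genes 0.13 in A965 and 0.09 in A963. The same 17 members were higher in both hashtags, and 12 of them stayed past 1.5-fold in both under each of the 3 ways of scaling tried: Psma5, Psmc2, Psmc5, Psmd3, Psmd4, Psmd5, Psmd6, Psmd7, Psmd9, Psmd11, Psmd12 and Psme3. Psmb8 and Psmb9 were the 2 members lower in both.

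By role, members counted as higher were found in every role but that of Psmb8, Psmb9 and Psmb10. The share of all genes higher in this gate was 24.2% in A965 and 18.4% in A963. Of the 11 non-ATPase subunits 6 in A965 and 8 in A963 were higher, and of the 6 ATPases 4 in each, while of the 7 alpha subunits counted 2 in each were higher. Of the 7 constitutive beta subunits 4 in A965 and 2 in A963 were, of the 3 chaperones 2 in each, and of the 5 activators 1 in each, Psme3. The counts of the alpha subunits and the activators lay near the share of all genes, as did that of the constitutive beta subunits in A963. Each role holds few members. Summed and relative to all counts, the non-ATPase subunits were at 1743 CPM in A965 and 1697 CPM in A963 in the early erythroid gate, against 604 CPM in A965 and 565 CPM in A963 in the neutrophil gate led by Ltf. The alpha subunits were at 2726 CPM in A965 and 2645 CPM in A963 in the early erythroid gate, against 1040 CPM in A965 and 1016 CPM in A963 in that neutrophil gate. Both role sums were thus higher in the early erythroid gate than in the neutrophil gate in both hashtags, on this scale.

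Within roles the members differed in how far they moved. In the alpha ring Psma5 and Psma3 had the highest log2 ratios in the early erythroid gate, 0.82 in A965 and 0.90 in A963 for Psma5 and 0.70 in A965 and 0.71 in A963 for Psma3. Psma1, Psma2, Psma4, Psma6 and Psma7 lay between 0.20 and 0.42 in A965 and between 0.11 and 0.41 in A963. Psma2 and Psma6 were the alpha subunits with the narrowest range over all gates, 1.82-fold in A965 and 1.80-fold in A963 for Psma2 and 1.88-fold in A965 and 1.77-fold in A963 for Psma6. Of the structural beta subunits, Psmb1, Psmb2, Psmb3 and Psmb4 had ratios of 0.35 to 0.73 in A965 and 0.43 to 0.70 in A963. The 6 ATPases lay between Psmc3 at 0.45 in A965 and 0.44 in A963 and Psmc2 at 0.93 in A965 and 0.91 in A963, with Psmc1, Psmc4, Psmc5 and Psmc6 inside that range.

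The non-ATPase subunits spread over a wider range of ratios than the ATPases. Psmd8 was at -0.09 in A965 and 0.07 in A963, and it had its highest level in the monocyte gate, at 270 CPM in A965 and 254 CPM in A963. Psmd13 was at 0.14 in both hashtags, and Psmd14, the deubiquitinase that removes ubiquitin from substrates, at 0.36 in A965 and 0.46 in A963. Psmd1 and Psmd2, the 2 largest subunits of the regulatory particle, were at 0.51 to 0.58 in A965 and 0.63 to 0.67 in A963. Psmd6, Psmd11 and Psmd12 were at 0.82 to 0.94 in A965 and 0.77 to 0.89 in A963, and Psmd4, a ubiquitin receptor, was at 1.01 in A965 and 0.85 in A963. Among the activators Psme4, which encodes PA200, was at 0.22 in A965 and 0.15 in A963. Psme1, Psme2 and Psme2b were below 0, at -0.37 to -0.30 in A965 and -0.63 to -0.42 in A963.

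Psmd9, a chaperone that helps to assemble the ATPase ring, had the highest ratio of all members. It was at 118 CPM in A965 and 115 CPM in A963 in the early erythroid gate and at 161 CPM in A965 and 190.3 CPM in A963 in the globin-high gate, which is led by Hbb-bs. In the other 13 gates it lay between 16.9 and 40.0 CPM in A965 and between 13.8 and 41.1 CPM in A963, so the erythroid gates did not overlap the rest. The ratio over other gates was 4.17 (3.82 to 4.54) in A965 and 2.96 (2.80 to 3.13) in A963 in the early erythroid gate, and 5.38 (4.73 to 6.09) in A965 and 4.66 (4.39 to 4.95) in A963 in the globin-high gate. Of the other assembly chaperones, Psmd5 was at 67.5 CPM in A965 and 66.1 CPM in A963 in the early erythroid gate, and Psmd10, also known as gankyrin, at 51.8 CPM in A965 and 56.8 CPM in A963, where the other gates held 33.1 to 74.1 CPM in A965 and 27.7 to 62.9 CPM in A963.

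Psmd7, the scaffold partner of the deubiquitinase Psmd14, was next. It was at 321 CPM in A965 and 301 CPM in A963 in the early erythroid gate, at 244 CPM in A965 and 191 CPM in A963 in the basophil and mast gate, and at 29.7 to 43.9 CPM in A965 and 42.7 to 49.7 CPM in A963 in the neutrophil gates. Its ratio in the early erythroid gate over the others was 2.99 (2.84 to 3.14) in A965 and 2.58 (2.50 to 2.67) in A963. Psmd3, a non-ATPase subunit, was at 105 CPM in A965 and 96.1 CPM in A963 in the early erythroid gate, against at most 64.9 CPM in A965 and 75.9 CPM in A963 elsewhere. Psme3, which encodes the nuclear activator PA28 gamma, was at 123 CPM in A965 and 118 CPM in A963, against at most 81.9 CPM in A965 and 78.6 CPM in A963 elsewhere. The early erythroid gate stood above all other gates in both hashtags for these members.

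The constitutive catalytic subunits were higher in the early erythroid gate than over the other gates too. Psmb7, which cuts after basic residues, was at 264 CPM in A965 and 228 CPM in A963 with ratios of 1.79 (1.69 to 1.89) in A965 and 1.52 (1.47 to 1.57) in A963. Psmb5, which cuts after hydrophobic residues, was at 275 CPM in A965 and 291 CPM in A963 with ratios of 1.23 (1.16 to 1.29) in A965 and 1.41 (1.37 to 1.46) in A963. Psmb6, which cuts after acidic residues, was at 315 CPM in A965 and 304 CPM in A963 with ratios of 1.42 (1.35 to 1.49) in A965 and 1.36 (1.32 to 1.41) in A963. Early erythroid cells also had the highest median total of any gate, 46040 counts in A965 and 46984 in A963, and genes of S phase were at 1918 CPM in A965 and 2119 CPM in A963 there, against 1309 CPM in A965 and 1522 CPM in A963 over all cells. The part of depth and of the cell cycle in these levels was not tested.

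In the 3 neutrophil gates together, relative to all counts, 35 of 42 members in A965 and 36 in A963 were at least 1.5-fold lower than over the other gates, where 47.2% of genes were in A965 and 44.7% in A963. None was higher, where 5.02% of genes were in A965 and 7.76% in A963. The median log2 ratio of members was -0.82 in A965 and -0.95 in A963, against -0.54 in A965 and -0.51 in A963 for all 7676 genes. This count turned on the scale: the 50 most abundant genes held 45.8% to 50.1% of all counts in the neutrophil gates of A965 and 47.4% to 51.6% in those of A963, against 22.6% to 33.1% in the other gates of A965 and 21.6% to 39.0% in those of A963. With median-of-ratios scaling, which sets the median ratio of all genes to 0, 6 members in A965 and 7 in A963 were lower, where 17.2% of genes were in A965 and 20.97% in A963. Also with it 1 member in A965, Psmd10 at 0.73, and none in A963 was higher, where 17.2% of genes were in A965 and 19.6% in A963. On that scale members had a median of -0.11 in A965 and -0.28 in A963, and 10 members in A965 and 8 in A963, Psmb9 and Psmd10 among them, lay above 0.

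The 6 members lower in both hashtags under all 3 ways of scaling were Psma4, Psma5, Psma7, Psmb8, Psmb10 and Psmd7. Psmb10 stood lowest of all in A965 and A963. It was at 12.1 to 24.1 CPM in the neutrophil gates of A965 and at 27.3 to 35.3 CPM in those of A963, with ratios over the other gates of 0.144 (0.134 to 0.154) in A965 and 0.229 (0.210 to 0.249) in A963. Psma5 was at 66.5 to 83.5 CPM in the neutrophil gates of A965 and at 63.5 to 84.4 CPM in those of A963, against 157 to 354 CPM in the other gates of A965 and 131 to 367 CPM in those of A963. Psmd10, by contrast, was at 46.3 to 55.3 CPM in the neutrophil gates of A965 and at 34.7 to 40.7 CPM in those of A963, inside the range of the other gates.

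**Figure D2:**
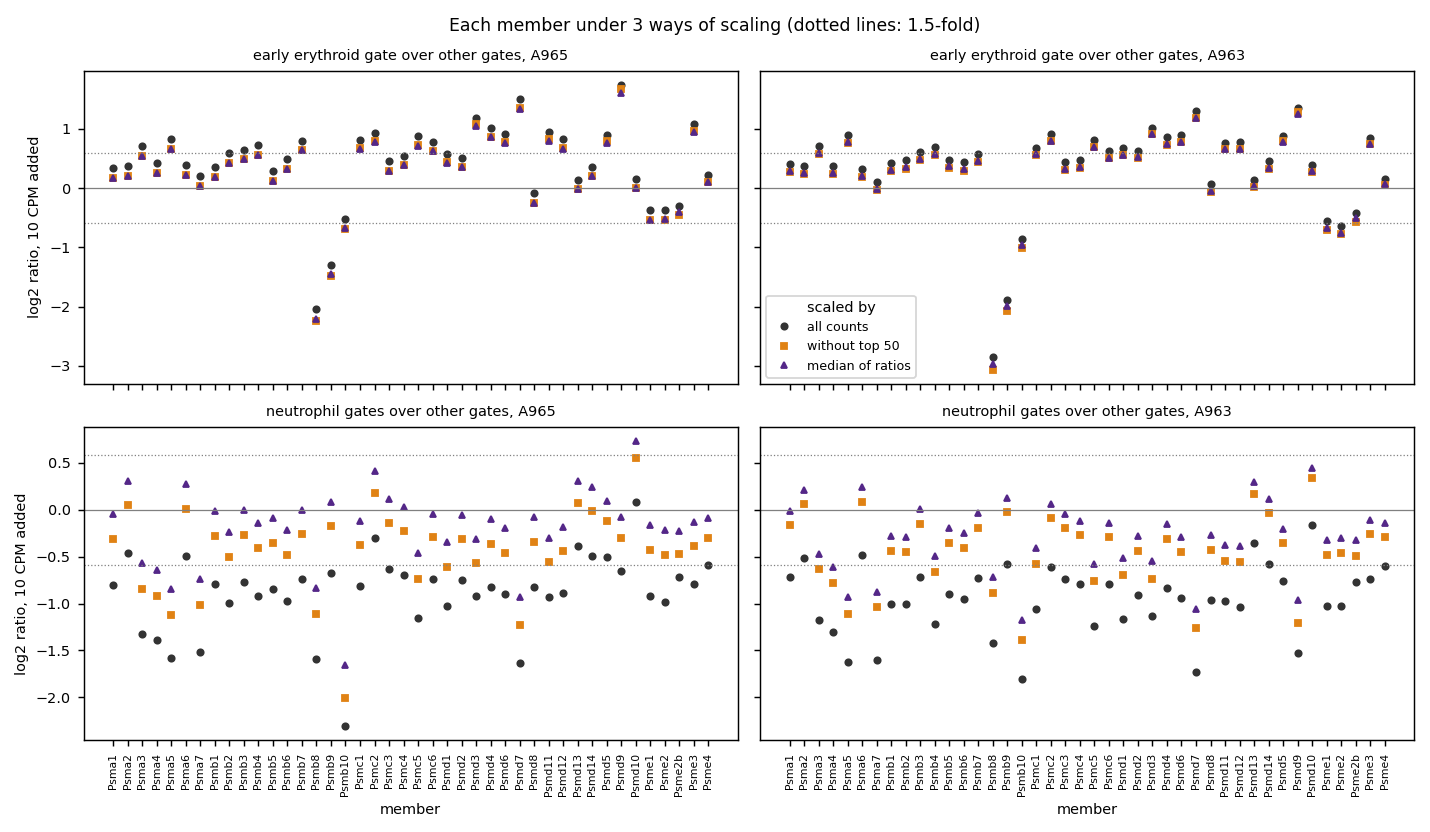
Log2 ratio, with 10 CPM added, of each of 42 members (x axis) in the early erythroid gate over other gates (top) and in the neutrophil gates over other gates (bottom), in A965 (left) and A963 (right). Circles are scaled by all counts, squares by totals without the 50 most abundant genes and triangles by median-of-ratios size factors; dotted lines mark 1.5-fold. In the neutrophil panels triangles sit higher than circles for every member, and those of Psmb9 and Psmd10 lie above 0 in both hashtags.

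The 3 immunoproteasome subunits followed another order. Their sum was highest in the class II gate, which is led by H2-Aa and Cd74 and holds dendritic cell markers, at 1254 CPM in A965 and 1436 CPM in A963. Next came the lymphoid gate (1160 CPM in A965 and 1053 CPM in A963) and the Siglech gate of plasmacytoid dendritic markers (1038 CPM in A965 and 1122 CPM in A963). It was at 880.1 CPM in A965 and 884 CPM in A963 in the stem gate, at 836 CPM in A965 and 846 CPM in A963 in the monocyte gate, and at 691 CPM in A965 and 720 CPM in A963 in the Mpo and Elane gate. The lowest sums were in the globin-high gate (191 CPM in A965 and 70.1 CPM in A963) and in the early erythroid gate of A963 (139.8 CPM), while the early erythroid gate of A965, at 220.5 CPM, was just under its neutrophil gates at 248 to 304 CPM. The early erythroid gate thus had the highest sum of the other 41 members in both hashtags and one of the 2 lowest sums of these 3. Psmb10 taken alone was higher there than in the neutrophil gates in both hashtags. In A965 it was at 70.4 CPM, against 12.1 to 24.1 CPM in the neutrophil gates. In A963 it was at 59.2 CPM, against 27.3 to 35.3 CPM.

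Psmb8, also called LMP7, was at 683 CPM (658 to 709) in A965 and 816 CPM (779 to 854) in A963 in the class II gate, and at 70.2 CPM (63.2 to 77.8) in A965 and 35.6 CPM (32.8 to 38.4) in A963 in the early erythroid gate. It was at 102 CPM in both hashtags in the neutrophil gate led by Ltf. Over the other gates its ratio was 2.26 (2.17 to 2.35) in A965 and 3.15 (3.01 to 3.30) in A963 in the class II gate, and 0.218 (0.196 to 0.242) in A965 and 0.111 (0.103 to 0.120) in A963 in the early erythroid gate. Its range over gates was 9.73-fold in A965 and 42.5-fold in A963, the widest of the 42 members in both on the log2 scale with 10 CPM added.

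Psmb9, also called LMP2, was at 443 CPM in A965 and 431 CPM in A963 in the class II gate and at 79.9 CPM in A965 and 45.0 CPM in A963 in the early erythroid gate. It was at 133 to 147 CPM in the neutrophil gates of A965 and 103 to 128 CPM in those of A963. Psmb10, also called MECL-1, was at 177 CPM (171 to 182) in A965 and 189.9 CPM (183 to 197) in A963 in the monocyte gate, with ratios over the other gates of 1.96 (1.89 to 2.03) in A965 and 2.06 (1.97 to 2.15) in A963. It was at 128 CPM in A965 and 189.3 CPM in A963 in the class II gate. The intervals of the monocyte gate overlapped those of the Ace and Adgre4 gate in A965 (157 to 187) and those of the class II gate (172 to 208) and the stem gate (165 to 194) in A963, so no gate stood highest beyond counting error.

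**Figure D3:**
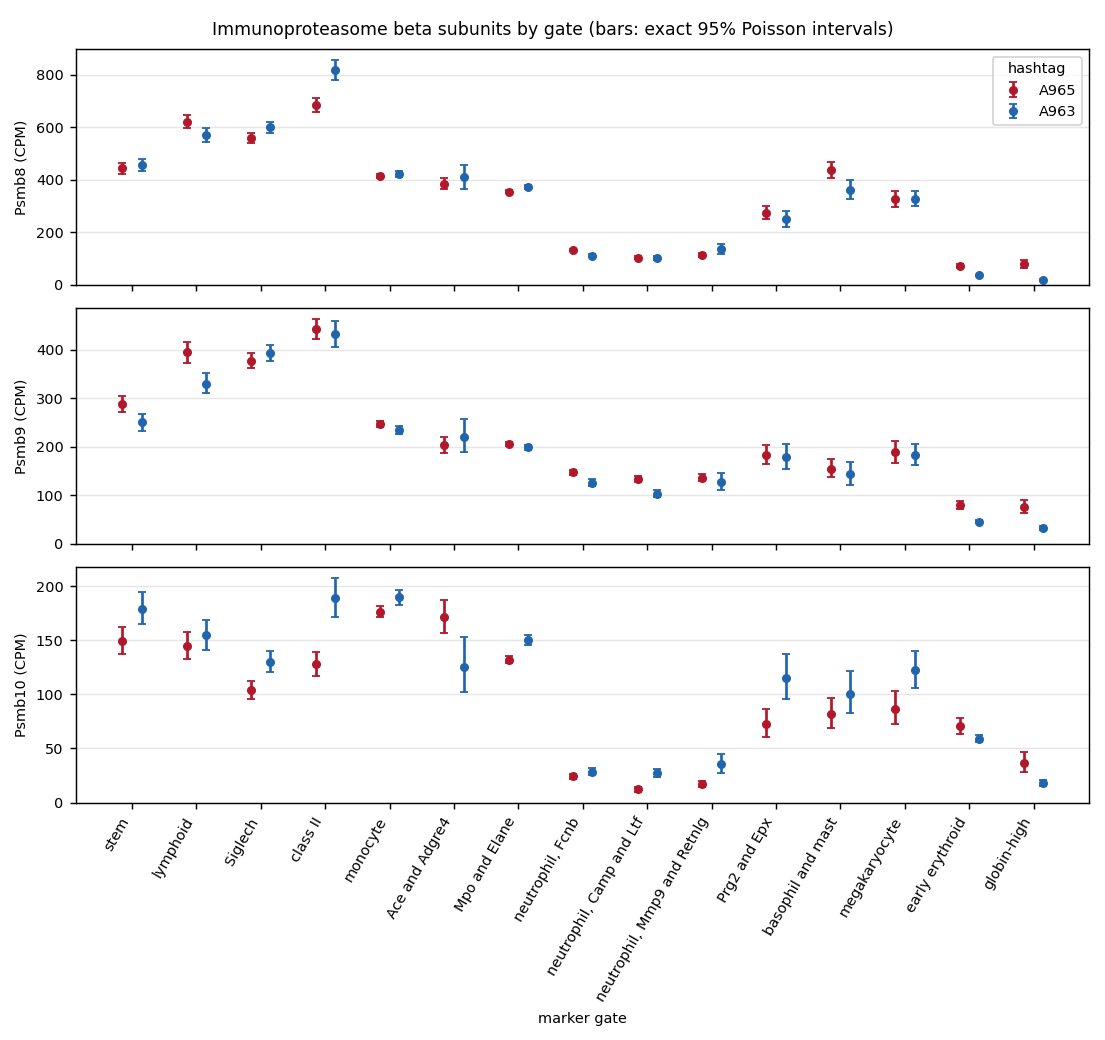
CPM of Psmb8 (top), Psmb9 (middle) and Psmb10 (bottom) in each of 15 gates, with A965 left of A963 in each pair; points are summed counts scaled to CPM and bars exact 95% Poisson intervals. Psmb8 and Psmb9 peak in the class II gate and are lowest in the 2 erythroid gates, while Psmb10 has its highest point in the monocyte gate, where its interval overlaps that of the Ace and Adgre4 gate in A965 and those of the class II and stem gates in A963, and is at 12.1 to 35.3 CPM in the neutrophil gates.

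The share of each catalytic pair taken by the immunoproteasome member removes the scale of the library total. Counts from 3' ends are not scaled by length, so a share is read only as a difference between gates. The share of Psmb8 in Psmb8 and Psmb5 was 79.4% in A965 and 78.8% in A963 in the class II gate, 54.1% in A965 and 58.6% in A963 in the Mpo and Elane gate, and 20.3% in A965 and 10.9% in A963 in the early erythroid gate. It was 44.9% to 47.3% in the neutrophil gates of A965 and 44.5% to 52.1% in those of A963. The share of Psmb9 in Psmb9 and Psmb6 was 68.2% in A965 and 64.0% in A963 in the class II gate, and 20.2% in A965 and 12.9% in A963 in the early erythroid gate. The share of Psmb10 in Psmb10 and Psmb7 was 53.0% in A965 and 53.3% in A963 in the monocyte gate, 21.1% in A965 and 20.6% in A963 in the early erythroid gate, and 12.0% to 18.3% in the neutrophil gates of A965 and 21.2% to 23.1% in those of A963. Erythroid cells had low shares for each of the 3 pairs, and neutrophil cells for Psmb10 while their shares of Psmb8 and Psmb9 were intermediate.

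**Figure D4:**
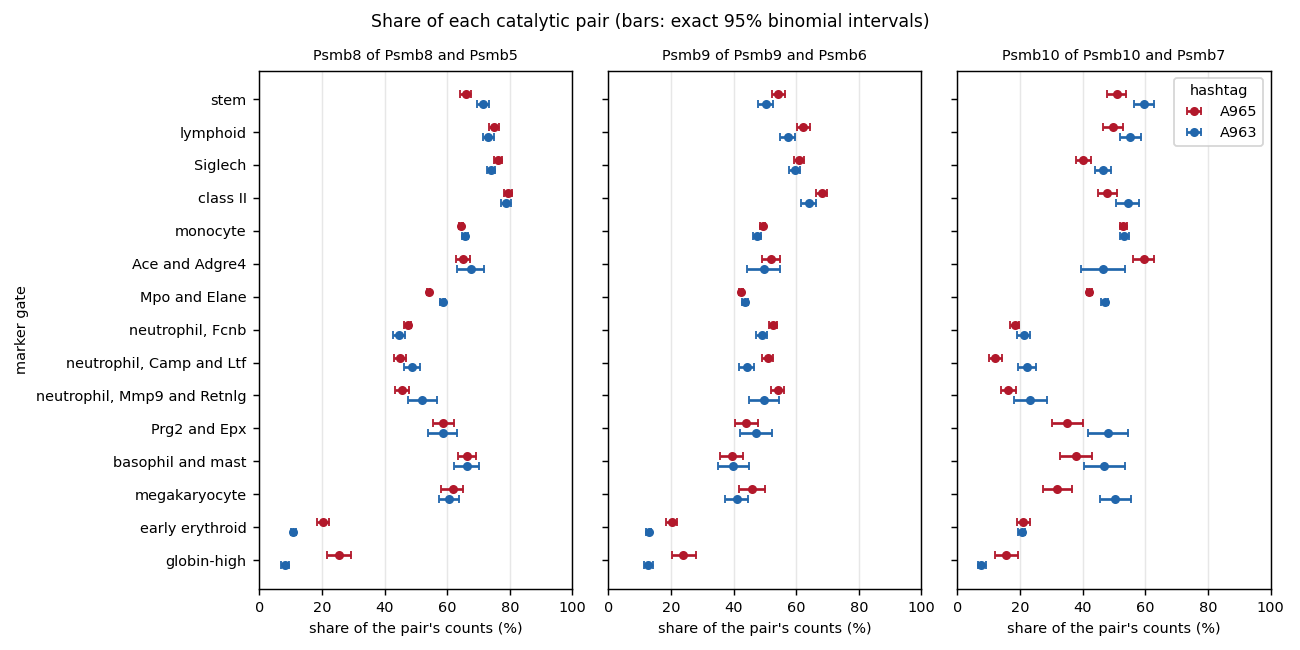
Share of counts, in percent, of Psmb8 in Psmb8 and Psmb5 (left), Psmb9 in Psmb9 and Psmb6 (middle) and Psmb10 in Psmb10 and Psmb7 (right), for each gate; A965 is drawn above A963 and bars are exact 95% binomial intervals. The shares of Psmb8 and Psmb9 are lowest in the 2 erythroid gates, between 8.19% and 25.4%, and that of Psmb10 is also low in the 3 neutrophil gates.

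In the class II gate, 4 members in A965 and 6 in A963 were at least 1.5-fold higher than over the other gates, where 9.68% of genes were in A965 and 9.98% in A963. No member in A965 and 4 in A963 were lower, where 10.1% of genes were in A965 and 9.73% in A963. Those higher in both were Psmb8, Psmb9, Psme1 and Psme2b, and all but Psme2b stayed so under the 3 ways of scaling. Psme1 and Psme2 encode the 2 chains of PA28, the activator that caps cores after interferon gamma. Psme1 was at 350 CPM in A965 and 424 CPM in A963 in the class II gate, against 111 to 311 CPM in the other gates of A965 and 106 to 321 CPM in those of A963. Psme2 was at 453 CPM in A965 and 663 CPM in A963 there, with ratios of 1.44 (1.37 to 1.51) in A965 and 2.14 (2.03 to 2.26) in A963. In the monocyte gate Psme2 was at 460 CPM in A965 and 516 CPM in A963, so the class II gate held its highest level in A963 only. The median member in this gate was at a log2 ratio of -0.26 in A965 and -0.14 in A963, against 0.01 in A965 and -0.01 in A963 for all genes. The plasma cell genes Igkc, Igha and Jchain summed to 3145 CPM in A965 and 5.27 CPM in A963 in the class II gate, and macrophage genes to 176 CPM in A965 and 460 CPM in A963. Without the 2 cells of A965 with over 1% of their counts in the plasma cell genes, the log2 ratio of the sum of Psmb8, Psmb9 and Psmb10 over other gates was 1.05 in A965, against 1.05 with them. The part of macrophage genes was not tested.

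In the monocyte gate, 4 members in A965 and 6 in A963 were higher, where 8.43% of genes were in A965 and 10.1% in A963, and no member in A965 and 1 in A963 was lower, where 6.67% of genes were in A965 and 6.8% in A963. Psma7 and Psmb10 stayed higher in both hashtags under the 3 ways of scaling. Psma7, an alpha subunit, was at 858 CPM in A965 and 890 CPM in A963, against 194 to 602 CPM in the other gates of A965 and 181 to 640 CPM in those of A963. Its ratio was 1.90 (1.87 to 1.93) in A965 and 1.92 (1.88 to 1.95) in A963, and no other alpha subunit passed 1.5-fold there. The median member was at 0.08 in A965 and 0.03 in A963, and the median gene at 0.07 in both.

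In the Mpo and Elane gate the hashtags differed in their counts: 8 members in A965 and 2 in A963 were higher, where 9.41% of genes were in A965 and 5.04% in A963, and no member in A965 and 1 in A963 was lower, where 5.97% of genes were in A965 and 6.83% in A963. With median-of-ratios scaling no member in A965 and 1 in A963 was higher. Psmd7 had the highest ratio in A965, at 1.77 (1.72 to 1.83), where its ratio in A963 was 1.09 (1.05 to 1.13).

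A965 and A963 were close for most members. Over all cells, with 10 CPM added, no member was 1.5-fold higher or lower in A965, where 1.92% of genes were higher and 2.08% lower. With 1 CPM added instead, 1 member was lower. The 41 members summed to 6426 CPM in A965 and to 6655 CPM in A963. Their ratio was 0.966 (0.963 to 0.968), or -0.05 on the log2 scale, and turned to 0.00699 on that scale with median-of-ratios scaling. The sum of Psmb8, Psmb9 and Psmb10 was 644 CPM in A965 and 564 CPM in A963. That ratio was 1.14 (1.13 to 1.15). Psmb9 had the highest log2 ratio, 0.27, and Psmd9 the lowest, -0.56. For Psmd9, at 31.6 CPM in A965 and 51.3 CPM in A963, the log2 ratio within the 9 gates of at least 100 cells in each hashtag lay between -0.13 and 0.36, and the erythroid gates in which it is high held 107 and 47 cells of A965 and 369 and 220 cells of A963.

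Within gates few members differed on the log2 scale with 10 CPM added. None passed 1.5-fold in the stem gate (0.795% of genes higher and 1.3% lower), the Siglech gate (0.703% higher and 1.32% lower), the class II gate (1.5% higher and 3.37% lower), the monocyte gate (1.78% higher and 0.938% lower), the Mpo and Elane gate (1.22% higher and 0.339% lower) or the neutrophil gate led by Fcnb (1.46% higher and 0.495% lower). In the lymphoid gate 1 member was lower, Psmd5 at 20.8 CPM in A965 and 37.4 CPM in A963, where 2.12% of genes were higher and 2.16% lower. In the neutrophil gate led by Ltf 1 member was lower, Psmb10 at 12.1 CPM in A965 and 27.3 CPM in A963 with a ratio of 0.445 (0.354 to 0.558), where 1.98% of genes were higher and 1.02% lower. Psmb10 was lower in A965 in 8 of the 9 gates, and in 7 of them the interval lay below 1. Psmb9 was higher in A965 in 8 of the 9 gates, with 6 intervals above 1, Psmb1 was higher in 9 of 9, with 7 above 1, and Psme3 was lower in 8 of 9, with 5 below 1. Psmb10, Psmb9, Psmb1 and Psme3 are the members with the most gates of 1 sign. How many of all genes have as many was not counted. The 9 gates share 1 library and the same hashtags, so they are not repeats.

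In the early erythroid gate 2 members were higher in A965 and none lower, where 0.378% of genes were higher and 0.248% lower: Psmb8, with a ratio of 1.97 (1.73 to 2.25), and Psmb9, with a ratio of 1.77 (1.57 to 2.00). Psmb5 in the same cells had a ratio of 0.945. After each cell was thinned to 8800 counts, Psmb8 was seen in 33.6% of the 107 cells of A965 and 20.1% of the 369 cells of A963, and unthinned in 61.7% of cells in A965 and 41.2% in A963. The lowest thinned share of any gate was 25.5% in A965 and 10.5% in A963, in the globin-high cells. No gate is known to lack Psmb8, so no share from free RNA can be set beside these, and the part of free RNA was not tested. In the early erythroid gate neutrophil markers summed to 2088 CPM in A965 and 2078 CPM in A963, monocyte markers to 208 CPM in A965 and 229 CPM in A963, and class II markers to 32.8 CPM in A965 and 56.0 CPM in A963. Markers of the globin-high gate were at 7673 CPM in A965 and 11781 CPM in A963 in these early erythroid cells, and in the globin-high gate itself Psmb8 was at 78.9 CPM in A965 and 19.2 CPM in A963 and Psmb9 at 75.9 CPM in A965 and 33.1 CPM in A963. Lymphoid markers were at 17.6 CPM in A965 and 5.03 CPM in A963. Their part in the result was not tested. In the globin-high gate neutrophil markers were at 10388 CPM in A965 and 4269 CPM in A963, and their part in the levels of that gate was not tested.

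**Figure D5:**
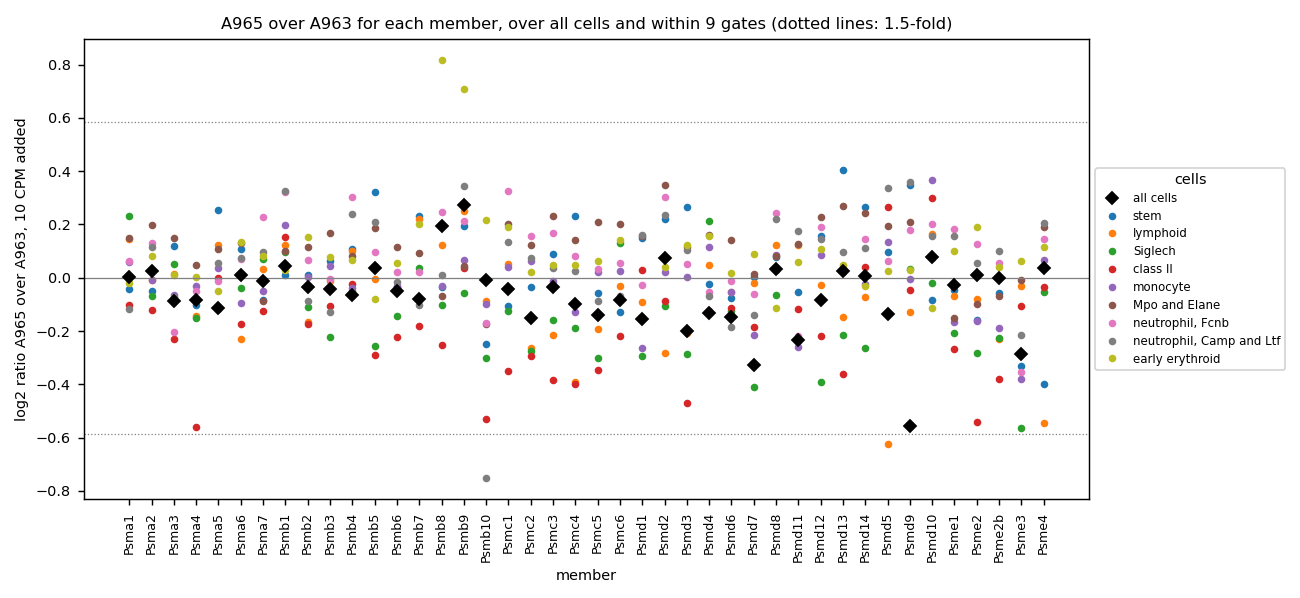
Log2 ratio of A965 over A963, with 10 CPM added, for each of 42 members (x axis), over all cells (black diamonds) and within 9 gates (coloured circles); dotted lines mark 1.5-fold. The circles past 1.5-fold are Psmb8 and Psmb9 in the early erythroid gate, Psmb10 in the neutrophil gate led by Ltf and Psmd5 in the lymphoid gate; for Psmd9 the diamond lies at -0.56 while the circles lie between -0.13 and 0.36.

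In the 3 small hashtags, the sum of Psmb8, Psmb9 and Psmb10 over all cells was 849 CPM (808 to 890) in A961, 732 CPM (702 to 763) in A962 and 714 CPM (680 to 749) in A964, against 644 CPM (640 to 648) in A965 and 564 CPM (560 to 568) in A963. The 41 other members summed to 7169 CPM in A961, 6802 CPM in A962 and 7106 CPM in A964, against 6426 CPM in A965 and 6655 CPM in A963. In A962, 104 cells were kept where 100 had been loaded. Xist was at 486 CPM in A961, 409 CPM in A962 and 59.7 CPM in A964. Y-linked genes were at 39.2 CPM in A961, 20.96 CPM in A962 and 86.0016 CPM in A964. Whether cells of A965 or A963 were called into the small hashtags was not tested, so their levels may include such cells. The monocyte gate held 39 of the 68 cells of A961, 18 of the 104 of A962 and 35 of the 73 of A964. Within that gate the 3 subunits summed to 959 CPM (901 to 1019) in A961, 949 CPM (859 to 1047) in A962 and 792 CPM (737 to 849) in A964, against 836 CPM in A965 and 846 CPM in A963, so A961 lay above A965 and A963. The interval of A962 lay above that of A965 and touched that of A963 (831 to 861), and the interval of A964 overlapped both. Psmb10 in that gate was at 251 CPM (222 to 283) in A961, 198 CPM in A962 and 184 CPM in A964, against 177 CPM in A965 and 189.9 CPM in A963.

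Other genes of the pathway were counted from lists. Of 12 assembly and associated factors, 6 in each hashtag were at least 1.5-fold higher in the early erythroid gate, where 24.2% of all genes were in A965 and 18.4% in A963. In each hashtag 1 was lower, where 22.9% of genes were in A965 and 21.9% in A963. The list had median log2 ratios of 0.64 in A965 and 0.47 in A963. Other lists moved less in this gate. Of 7 genes counted that deliver substrates, Vcp among them, 3 in A965 and 2 in A963 were higher and none lower. None of 5 ubiquitin genes passed 1.5-fold either way in A965 or A963. The same held for 4 genes of proteasome recovery, Nfe2l1 among them. Psmg2, one of the chaperones that build the alpha ring, was at 147 CPM in A965 and 142 CPM in A963 in the early erythroid gate and at 15.5 CPM in A965 and 12.7 CPM in A963 in the neutrophil gate led by Ltf. Pomp, which is needed to mature the beta ring, was at 428 CPM in A965 and 530 CPM in A963 in the class II gate and at 344 CPM in A965 and 355 CPM in A963 in the early erythroid gate. Sem1, the smallest subunit of the regulatory particle, ran the other way, at 789 CPM in A965 and 731 CPM in A963 in the neutrophil gate led by Ltf and 335 CPM in A965 and 343 CPM in A963 in the early erythroid gate.

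The genes of MHC class I and its peptide loading summed to 3359 CPM in A965 and 2254 CPM in A963 in the early erythroid gate, and to 6932 CPM in A965 and 6452 CPM in A963 in the class II gate. The sum was higher in the Ace and Adgre4 gate, at 12298 CPM in A965 and 8082 CPM in A963. It was also higher in the basophil and mast gate, at 8303 CPM in A965 and 6479 CPM in A963. Its order over gates thus differed from that of the sum of Psmb8, Psmb9 and Psmb10. Of its 10 genes of at least 10 CPM, 7 in A965 and 9 in A963 were at least 1.5-fold lower in the early erythroid gate and none higher, where 22.9% of all genes were lower in A965 and 21.9% in A963. In the class II gate 4 in A965 and 7 in A963 were higher, where 9.68% of genes were in A965 and 9.98% in A963, and 1 in A965 and none in A963 were lower. Tap1, which transports peptides for loading, was at 26.8 CPM in A965 and 17.9 CPM in A963 in the early erythroid gate and at 135 CPM in A965 and 104 CPM in A963 in the class II gate.

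Over the 15 gates, the genes whose log2 level was most like that of the sum of Psmb8, Psmb9 and Psmb10 among 2545 genes of at least 50 CPM were Nrros (Pearson r 0.952 in A965 and 0.962 in A963), Sp110 (0.975 in A965 and 0.932 in A963) and Cnpy3 (0.944 in A965 and 0.921 in A963). Of the other members the closest were Psme1, at rank 32 with r of 0.933 in A965 and 0.885 in A963, and Psme2, at rank 45 with 0.852 in A965 and 0.894 in A963. For the sum of Psmb5, Psmb6 and Psmb7, Rps27l ranked first, with r of 0.979 in both hashtags, and Psma5 and Psma3 were at ranks 3 and 5. The gates share 1 library and its depth, and these values carry no test.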

How the data were processed

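The deposited counts give genes by cells for 1 library of bone marrow cells; whether they are molecules or reads is not given in the sources used here. In that table values of 2 were 54.7% as frequent as values of 1, so counting intervals may be too narrow. Per the submitters' processing notes the authors used GRCm38, Seurat 4.2.0 and R 4.2.1; aligner, annotation and counter are not given in the sources used here. Of 10731 cells, 10535 carried 1 hashtag by the authors' call; cells with under 500 genes or over 20% mitochondrial counts were left out (7 cells), and the 190 doublets and 6 undetermined cells of the authors too. Scrublet marked 242 of the kept cells (2.30%), which were kept. Cells were gated by the mean z-score of marker lists (at least 0.5, and 0.2 above the next list). Counts were summed per gate and hashtag and scaled to CPM. Poisson, Clopper-Pearson and conditional binomial intervals are exact, at 95%. Genes past 1.5-fold, with 10 CPM added, were counted over 7676 genes; the interval script was tested on simulated data. Genes named were Psmb8, Psmb9, Psmb10, Psme1, Psme2, Psmb5, Psmb6 and Psmb7, the 5 members with the widest range over gates and the 5 largest ratios each way in a comparison. The members' rule uses gene names only, but the set, the lists and the gates were chosen with earlier results of these data known. Alternatives were other scalings, thinned cells, stricter and looser gates, no doublets, another pseudocount and fold, and means over cells. Coordinates are GENCODE M21 on GRCm38. Python 3.11.15, numpy 2.4.6, scipy 1.17.1, pandas 2.3.3 and scanpy 1.11.5 were used.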

Additional observations from a re-analysis of the deposited data

Results flagged for a closer look

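The 3 rows left out for the ending -ps held counts outside the set: Psma5-ps at 2.63 CPM (794 counts over all kept cells), Psmb7-ps2 at 0.0398 CPM (12 counts) and Psmb5-ps at 0.0166 CPM (5 counts). Each lies above the 3 counts that a count of 0 allows. Such copies can share reads with their parent genes, and the part of shared reads was not tested.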

How the results depend on the processing

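No paired analysis was possible because no hashtag has a replicate, and no library could be left out. As reported, the log2 ratio of the 41-member sum was 0.54 in A965 and 0.50 in A963 for the early erythroid gate, -0.95 in A965 and -1.03 in A963 for the neutrophil gates, and -0.05 for A965 over A963; for the sum of Psmb8, Psmb9 and Psmb10 it was 1.05 in A965 and 1.45 in A963 for the class II gate and 0.19 for A965 over A963. With median-of-ratios scaling the early erythroid ratios were 0.37 in A965 and 0.38 in A963, the neutrophil ratios -0.15 in A965 and -0.29 in A963 with 6 members in A965 and 7 in A963 lower, and the A965 over A963 ratios 0.00699 and 0.25; Psmb9 in the neutrophil gates of A965 turned to 0.0796 as against -0.68, and every gene moves with this scale by construction. With totals that leave out the 50 most abundant genes the early erythroid ratios were 0.37 in A965 and 0.35 in A963 with 12 members higher in A963, the neutrophil ratios -0.42 in A965 and -0.45 in A963 with 9 members in A965 and 12 in A963 lower, the class II ratios 0.89 in A965 and 1.32 in A963, and the A965 over A963 ratios -0.0171 and 0.22. Thinning each cell to 8800 counts gave 0.61 in A965 and 0.555 in A963 for the early erythroid gate, -0.90 in A965 and -0.98 in A963 for the neutrophil gates, 1.36 for the class II gate in A963, and -0.0389 and 0.0868 for A965 over A963; the share of Psmb8 in the early erythroid gate became 28.6% in A965 and 12.5% in A963. Means over cells of each cell's own CPM gave 0.60 in A965 and 0.56 in A963, -0.89 in A965 and -0.98 in A963, 1.35 in A963, and shares of 28.7% in A965 and 12.8% in A963, in that order of results. Stricter gates gave -0.99 in A965 and -1.06 in A963 for the neutrophil gates, 1.10 in A965 and 1.51 in A963 for the class II gate and 0.51 for the early erythroid gate in A963; looser gates gave -0.92 in A965 and -1.01 in A963, 0.96 in A965 and 1.34 in A963, and 0.49 in A963. Without Scrublet's doublets the neutrophil ratios were -0.96 in A965 and -1.05 in A963, the early erythroid ratio 0.51 in A963 and its Psmb8 share 9.61%. With 1 CPM added, 1 member was lower in A965 than in A963. At 2-fold, 5 members in A965 and 3 in A963 were higher in the early erythroid gate, 9 in A965 and 18 in A963 lower in the neutrophil gates, and 0 higher in A965 over A963 early erythroid cells. Within the monocyte gate the 3 subunits summed to 959 CPM in A961, 949 CPM in A962 and 792 CPM in A964. Leaving 2 plasma-like cells of A965 out of the class II gate was an alternative chosen after seeing the data. The class II ratio of the sum of Psmb8, Psmb9 and Psmb10 in A965 stayed at 1.05. Members past 1.5-fold were not counted again without those cells. The other causes of these shifts were not tested. Low counts limit the small hashtags and the rarer gates.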
